A study of Mus musculus with 4 samples.

Results

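The genes of the eNOS and soluble guanylate cyclase (sGC) axis were followed in primary mouse liver sinusoidal endothelial cells (LSEC). The 10 genes were taken by name from a table of 18373 genes, and all 10 had enough reads to be tested. They were *Nos3*, which encodes eNOS, *Nosip*, *Nostrin*, *Gch1*, *Ddah1*, *Ddah2*, the sGC subunits *Gucy1a1* and *Gucy1b1*, *Prkg1* and *Pde5a*. The cells came from livers of 8-week-old Balb/c mice, were purified on a density gradient and with magnetic beads against CD146, an endothelial surface protein, and are labelled as LSEC at day 3. Both groups were transfected with siRNA for 48 h. The NC group (n = 2) received a control siRNA and the si*Airn* group (n = 2) an siRNA against the long noncoding RNA *Airn*, and the comparison asked which genes changed when *Airn* was targeted. The labels name both treated libraries as siAirn1 while the methods speak of separate siRNAs, so the siRNA behind each library was not settled. All libraries were labelled as biological replicates, how many mice each held was not given, and p-values measure the spread between these libraries only.

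eNOS makes nitric oxide from arginine and needs calmodulin and the cofactor tetrahydrobiopterin, for which GTP cyclohydrolase (*Gch1*) catalyses the first step. The dimethylarginine hydrolases *Ddah1* and *Ddah2* are known for clearing methylarginines that inhibit the enzyme, and *Nosip* and *Nostrin* encode proteins that bind eNOS and alter its place in the cell. Nitric oxide binds the heme of sGC, a dimer of an alpha and a beta subunit. The cyclic GMP that sGC forms activates the kinase encoded by *Prkg1* and is broken down by the phosphodiesterase encoded by *Pde5a*. In the liver, eNOS is best known from endothelial cells. sGC, *Prkg1* and *Pde5a* are also well known from contractile cells such as smooth muscle cells, pericytes and stellate cells.

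Estimated read counts summed to between 17308382 and 18371959 per library. *Airn* had 7 and 3 counts in the NC libraries and 11 and 9 in the si*Airn* libraries. The counts of the targeted RNA were thus no smaller under si*Airn* than under NC, and were too few to be tested. Markers of the labelled cell type were present in every library. The 8 LSEC markers (*Stab1*, *Stab2*, *Lyve1* and others) summed to 3426 and 3449 CPM (counts relative to library size, TMM-scaled) in NC and to 2419 and 2187 CPM in si*Airn*, with 7 of 8 lower by the test used below, as were 8.56% of all genes. Left out in turn, NC replicate 1 and NC replicate 2 took that count to 1 and 0 with edgeR's quasi-likelihood test, with 7 and 8 at an unadjusted p under 0.05. RNA of other liver cells was also present, and no marker of the lists given here that was in the table was at 0 in every library (of 10 hepatocyte markers, 9 were in the table). In NC and si*Airn* respectively, 14 stellate, smooth muscle and pericyte markers summed to 1568 and 1920 CPM and to 1793 and 2334 CPM. The hepatocyte markers summed to 525.1 and 682.7 CPM and to 746.4 and 968.6 CPM. The Kupffer cell and macrophage markers summed to 243.2 and 310.2 CPM and to 185.9 and 156.2 CPM. By the test used below, 1 of 7 hepatocyte markers tested rose (14.3%, against 8.27% of all genes). Of 11 Kupffer cell and macrophage markers tested, 7 fell (63.6%, against 8.56% of all genes). All 7 of the former had log2 fold changes above 0 (median 0.50) and all 11 of the latter below 0 (median -0.78). After correction for GC content and length the numbers called were 1 and 2.

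Levels of different genes were compared as FPKM, which divides reads by transcript length. In the NC libraries, *Ddah2* had the highest level of the 10 genes at 86.2 ± 0.61 FPKM (SD, n = 2). *Ddah1* followed at 55.0 ± 0.014 FPKM and *Nosip* at 50.9 ± 2.1 FPKM. The sGC subunits were in the middle of the order, *Gucy1b1* at 21.8 ± 1.5 FPKM and *Gucy1a1* at 16.0 ± 2.8 FPKM. *Gch1* came next at 13.9 ± 0.12 FPKM. *Nos3* itself was at 8.16 ± 0.87 FPKM and *Nostrin* at 4.10 ± 0.28 FPKM. *Prkg1* at 1.66 ± 0.14 FPKM and *Pde5a* at 1.51 ± 0.0071 FPKM were lowest. eNOS transcripts were thus present at a lower level than those of both hydrolases, of *Nosip* and of both sGC subunits. The ranges of neighbours in this order did not overlap in NC. The order was the same in si*Airn*, where *Ddah2* (55.4 to 70.5 FPKM) and *Ddah1* (53.8 to 56.1 FPKM) were the only neighbours with overlapping ranges. The plot of levels by library shows the spread behind each mean.

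**Figure D1:**
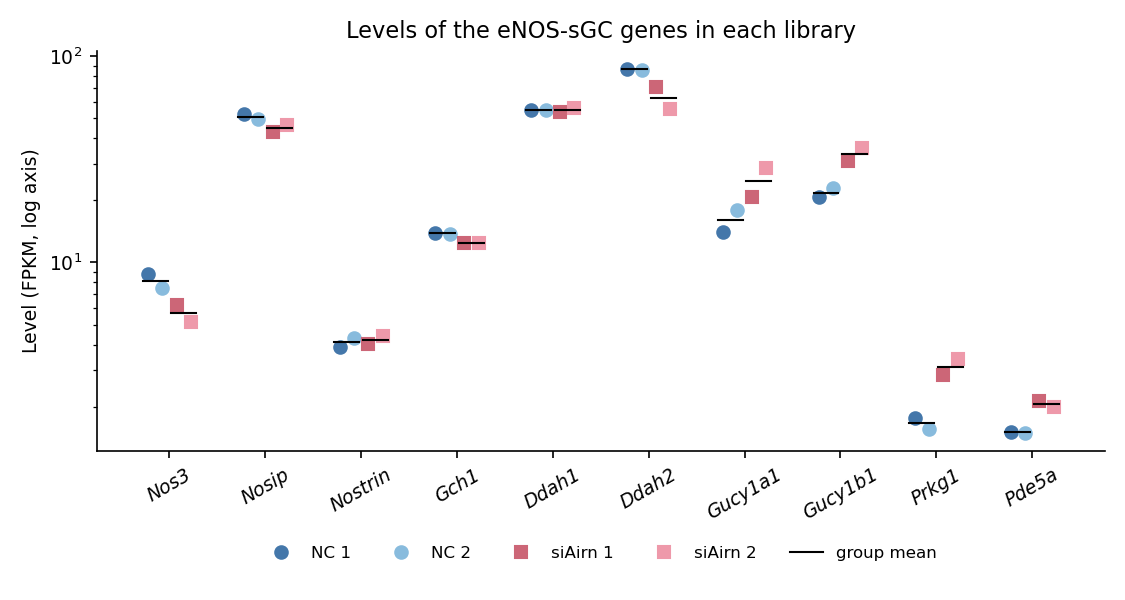
Level of each of the 10 genes in each library, in FPKM on a log axis. Circles are the NC libraries, squares the si*Airn* libraries and horizontal lines the mean of 2 libraries; *Gucy1b1*, *Gucy1a1*, *Prkg1* and *Pde5a* were higher in both si*Airn* libraries, while *Nos3* and *Ddah2* were lower in both.

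Between the groups, genes of the axis moved in both directions. *Gucy1b1* rose by 49.6% and *Prkg1* by 64.8%, while *Nos3* fell by 31.5% and *Ddah2* fell by 29.2%. These 4 of 10 genes had an adjusted p under 0.05 (quasi-likelihood test of edgeR, Benjamini-Hochberg over 13628 genes tested), and so did 16.8% of all genes. The 2 genes that rose compare with 8.27% of all genes and the 2 that fell with 8.56%. At the study's own threshold, a fold change over 1.4 with an unadjusted p under 0.05, 5 of 10 genes passed, the fifth being *Gucy1a1*, against 9.96% of all genes. That count was 3 without NC replicate 1, 1 without si*Airn* replicate 2, 3 with limma on log2(FPKM + 1) and 1 after correction for GC content and length. The CPM of the groups did not overlap for 9 of 10 genes, all but *Ddah1*, and did not overlap for 62.7% of all genes. The median log2 fold change was 0.02 over the 10 genes and 0.0013 over all genes. The calls rested on both NC libraries: with NC replicate 1 or NC replicate 2 left out, edgeR's quasi-likelihood test called 0 of the 10 genes, while 4 and 6 of them had an unadjusted p under 0.05. Over all 13628 genes the same fits called 35 and 0, with 3475 and 3075 at an unadjusted p under 0.05. With all libraries, 8 of the 10 genes and 4631 of all genes had an unadjusted p under 0.05.

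**Figure D2:**
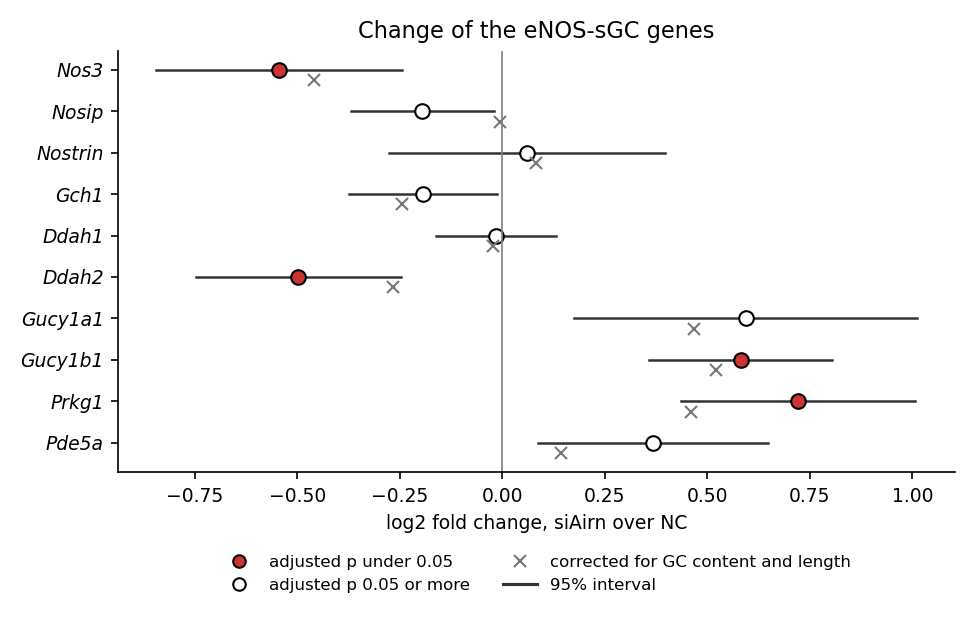
Log2 fold change of each gene, si*Airn* over NC, from edgeR's quasi-likelihood test. Circles are estimates with their 95% intervals, filled where the adjusted p was under 0.05, and crosses are the estimates after correction for GC content and transcript length; *Gucy1b1* kept an adjusted p under 0.05 after that correction (0.0268), and *Nos3*, *Prkg1* and *Ddah2* did not.

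*Nos3* (Entrez Gene 18127) lies at chr5:24364810-24384474 on the plus strand of GRCm38 in the GENCODE annotation. It measured 35.2 and 30.02 CPM in the NC libraries and 24.5 and 20.2 CPM in the si*Airn* libraries, so every NC value was above every si*Airn* value. The log2 fold change was -0.55 ± 0.13 (SE), with a 95% interval from -0.84 to -0.25 and an adjusted p of 0.0302. With limma on log2(FPKM + 1) its adjusted p was 0.0548 and after correction for GC content and length 0.0647, in a range of 0.000397 to 0.0647 over the alternatives that kept all libraries. Leaving out NC replicate 1 gave 0.164, NC replicate 2 gave 0.119 and si*Airn* replicate 2 gave 0.0700. Of the exonic bases of *Nos3*, 32.3% lie under antisense exons, 25.2% under *Gm15587* and 7.12% under *Atg9b*. Whether reads were counted by strand was not given, so reads from these partners cannot be told apart from *Nos3* reads. *Atg9b* was low, at 2.74 and 2.43 CPM in NC and 2.21 and 2.15 CPM in si*Airn*, with a log2 fold change of -0.25 ± 0.26 and an adjusted p of 0.547.

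Of 8 general endothelial markers, 5 fell (*Pecam1*, *Cdh5*, *Tie1*, *Eng* and *Erg*), against 8.56% of all genes, and over the 8 the log2 fold changes had a median of -0.49. The other 3 did not pass the test, *Emcn* at -0.29 (adjusted p = 0.0961), *Tek* at -0.05 (0.755) and *Kdr*, a receptor for VEGF, at 0.02 (0.901). Without NC replicate 1 the number called was 1 and without NC replicate 2 it was 0 (edgeR's quasi-likelihood test), with 5 at an unadjusted p under 0.05 in either fit. The sum of the 8 was 8955 and 8596 CPM in NC and 6529 and 5761 CPM in si*Airn*. Set against that sum, a measure chosen after the values were seen, *Nos3* stood at 3.94 and 3.49 CPM per 1000 CPM of endothelial markers in NC. The si*Airn* libraries gave 3.75 and 3.51 on the same measure, so the groups overlapped. Per 1000 CPM of LSEC markers, the NC libraries had 10.3 and 8.70 CPM of *Nos3* and the si*Airn* libraries 10.1 and 9.25 CPM, again with overlap. Most of the endothelial sum came from *Eng*, *Cdh5* and *Pecam1*, which fell. Per 1000 CPM of *Kdr* alone, chosen in the same way, *Nos3* stood at 56.0 and 54.4 CPM in NC and at 37.8 and 36.6 CPM in si*Airn*, without overlap. Per 1000 CPM of *Tek* alone, the NC libraries had 171.8 and 173.6 CPM and the si*Airn* libraries 125.1 and 120.0 CPM. Whether *Nos3* fell relative to endothelial RNA thus depended on the markers used. In such bulk RNA, fewer endothelial cells and less RNA per cell cannot be told apart.

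The pattern of *Nos3* over the 4 libraries was closest to that of *Gpnmb*, *Rtkn*, *Hsd3b7*, *Procr* and *Cdh5* among 10477 genes averaging 5 CPM or more. Likeness was the root mean square difference of log2 CPM centred on each gene's mean, and ranged from 0.0119 for *Gpnmb* to 0.0280 for *Cdh5*. *Gpnmb*, the closest, measured 35.95 and 29.96 CPM in NC and 24.73 and 20.3 CPM in si*Airn*. *Rtkn* measured 82.23 and 71.91 CPM in NC and 57.14 and 48.28 CPM in si*Airn*. *Hsd3b7* measured 42.84 and 36.32 CPM in NC and 30.48 and 24.2 CPM in si*Airn*. Of these genes, *Cdh5* alone is in the marker lists used here. *Cdh5*, the cadherin of endothelial junctions, measured 2625 and 2322 CPM in NC and 1794 and 1524 CPM in si*Airn*. *Procr*, the endothelial protein C receptor, measured 288.9 and 257.1 CPM in NC and 204.3 and 168.7 CPM in si*Airn*. With only 4 libraries, many genes share a given order of values, and the list describes these libraries only.

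The 3 other genes that act on the eNOS protein or its cofactor did not pass the adjusted threshold. *Nosip* (Entrez Gene 66394, chr7:45062429-45078210) measured 94.4 and 89.0 CPM in NC and 76.5 and 83.7 CPM in si*Airn*. That is a log2 fold change of -0.20 ± 0.07, with an interval from -0.37 to -0.02 and an adjusted p of 0.112, and of -0.01 after correction for GC content and length. *Nostrin* (Entrez Gene 329416, chr2:69135800-69189330) measured 7.24 and 7.57 CPM in NC and 7.63 and 7.80 CPM in si*Airn*. The si*Airn* values were only slightly above the NC values, with a log2 fold change of 0.06 ± 0.14, an interval from -0.28 to 0.40 and an adjusted p of 0.802. *Gch1* (Entrez Gene 14528, chr14:47153895-47189413) measured 37.3 and 37.0 CPM in NC and 32.3 and 32.7 CPM in si*Airn*. The log2 fold change was -0.19 ± 0.08, with an interval from -0.37 to -0.01 and an adjusted p of 0.125. For *Nosip* and *Gch1* both si*Airn* libraries lay below both NC libraries.

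Of the dimethylarginine hydrolases, *Ddah2* fell and *Ddah1* did not pass the test. *Ddah2* (Entrez Gene 51793, chr17:35059035-35062095) measured 109.0 and 108.8 CPM in NC and 85.9 and 68.4 CPM in si*Airn*. The NC libraries were nearly equal, and both si*Airn* libraries lay below them. This gave a log2 fold change of -0.50 ± 0.11, with an interval from -0.75 to -0.25 and an adjusted p of 0.0244. *Ddah1* (Entrez Gene 69219, chr3:145758675-145894277) measured 185.3 and 187.2 CPM in NC and 179.5 and 189.2 CPM in si*Airn*, and the groups overlapped. The estimate was -0.02 ± 0.06 on the log2 scale, with an interval from -0.16 to 0.13 and an adjusted p of 0.887. The change of *Ddah2* was -0.27 after correction for GC content and length, with an adjusted p of 0.186 in a range of 0.000339 to 0.186 over the alternatives that kept all libraries. Leaving out NC replicate 1 gave an adjusted p of 0.126 and leaving out NC replicate 2 gave 0.148.

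Within each library, the ratio of *Ddah1* to *Ddah2* in FPKM was 0.634 and 0.641 in NC and 0.763 and 1.01 in si*Airn*. Both si*Airn* ratios were above both NC ratios, and with 2 libraries a group no exact test can go below p = 0.333. Relative to the summed endothelial markers *Ddah2*, like *Nos3*, overlapped between groups, at 12.2 and 12.7 CPM per 1000 CPM of their sum in NC and 13.2 and 11.9 in si*Airn*. Per 1000 CPM of *Kdr* alone it did not overlap, at 173.1 and 197.1 CPM in NC and 132.7 and 123.9 CPM in si*Airn*, nor did it per 1000 CPM of *Tek* alone. The window around the annotated start of *Ddah2* is shown because this gene fell. It is RefSeq sequence of GRCm38.p6, plus strand, from 250 bases before to 50 bases after the start. Capitals mark CACCC on either strand, the core of sites that Krüppel-like factors are known to bind.
Ddah2, chr17:35058785-35059084: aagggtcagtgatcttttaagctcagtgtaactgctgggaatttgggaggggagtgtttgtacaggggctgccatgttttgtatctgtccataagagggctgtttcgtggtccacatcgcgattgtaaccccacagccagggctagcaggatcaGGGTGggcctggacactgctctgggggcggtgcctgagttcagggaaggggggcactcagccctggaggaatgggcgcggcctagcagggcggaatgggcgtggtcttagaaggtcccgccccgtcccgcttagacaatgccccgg

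**Figure D3:**
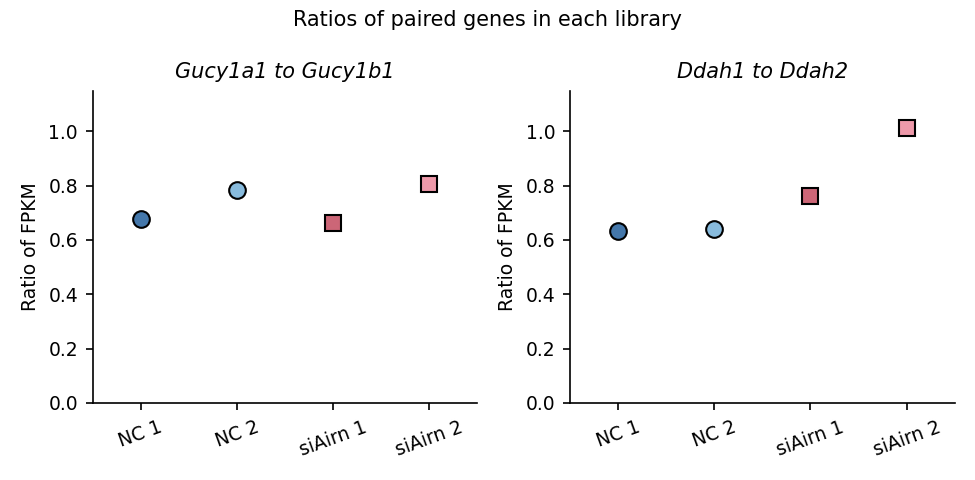
Ratio of FPKM between paired genes in each library, *Gucy1a1* to *Gucy1b1* on the left and *Ddah1* to *Ddah2* on the right, with circles for NC and squares for si*Airn*. The sGC subunit ratio was between 0.663 and 0.804 and overlapped between groups, while the *Ddah* ratio was 0.634 and 0.641 in NC and 0.763 and 1.01 in si*Airn*.

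The sGC subunits and *Prkg1*, the kinase gene downstream of them, were higher in both si*Airn* libraries than in both NC libraries. Their windows are shown for that reason, again from RefSeq on GRCm38.p6, all on the minus strand, with CACCC in capitals on either strand. *Gucy1a1* and *Prkg1* each have a pair of annotated windows.
Gucy1a1, chr3:82145601-82145900: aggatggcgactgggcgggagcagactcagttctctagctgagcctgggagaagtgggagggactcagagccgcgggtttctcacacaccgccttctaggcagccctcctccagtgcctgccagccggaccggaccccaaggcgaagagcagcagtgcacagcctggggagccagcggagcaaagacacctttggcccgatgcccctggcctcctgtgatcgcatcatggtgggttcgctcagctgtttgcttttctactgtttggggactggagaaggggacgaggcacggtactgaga
Gucy1a1, chr3:82145024-82145323: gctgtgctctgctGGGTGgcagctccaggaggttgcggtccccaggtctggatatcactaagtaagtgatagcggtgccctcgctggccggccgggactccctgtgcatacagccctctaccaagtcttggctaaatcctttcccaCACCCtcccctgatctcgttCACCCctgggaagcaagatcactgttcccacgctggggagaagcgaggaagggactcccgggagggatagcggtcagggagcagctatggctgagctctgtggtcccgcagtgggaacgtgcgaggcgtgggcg
Gucy1b1, chr3:82074662-82074961: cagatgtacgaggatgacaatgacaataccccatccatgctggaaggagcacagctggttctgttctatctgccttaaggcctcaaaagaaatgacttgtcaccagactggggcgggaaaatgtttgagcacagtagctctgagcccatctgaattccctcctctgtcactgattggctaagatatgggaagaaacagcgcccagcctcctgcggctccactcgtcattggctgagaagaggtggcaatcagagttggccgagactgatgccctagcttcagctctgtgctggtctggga
Prkg1, chr19:31764984-31765283: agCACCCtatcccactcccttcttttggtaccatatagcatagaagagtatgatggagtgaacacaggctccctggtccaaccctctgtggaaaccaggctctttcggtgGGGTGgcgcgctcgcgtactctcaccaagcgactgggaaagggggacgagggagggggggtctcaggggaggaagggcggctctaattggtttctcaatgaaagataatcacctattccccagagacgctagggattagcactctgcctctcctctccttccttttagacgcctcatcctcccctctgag
Prkg1, chr19:31664321-31664620: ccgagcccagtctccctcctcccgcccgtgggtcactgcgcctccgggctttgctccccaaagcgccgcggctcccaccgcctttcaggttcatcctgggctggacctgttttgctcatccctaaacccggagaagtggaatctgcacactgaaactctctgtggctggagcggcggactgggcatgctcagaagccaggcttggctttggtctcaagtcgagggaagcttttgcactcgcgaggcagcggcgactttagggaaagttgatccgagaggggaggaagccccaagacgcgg

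CACCC was found 3 times in 1 of the *Gucy1a1* windows, 2 times in 1 *Prkg1* window and 1 time in the *Ddah2* window, but 0 times in the *Gucy1b1* window. It was found in 57.5% of all 32851 windows of the same length. GGGCGG, the GC box, was found 3 times in the *Ddah2* window and 1 time each in the *Gucy1b1* window, in both *Prkg1* windows and in the *Gucy1a1* window without CACCC, against 35.7% of all windows with a match. TGACTCA, the AP-1 site, TGACGTCA, the cyclic AMP response element, and the CArG box were found in no window of the 9 genes that had one. Those motifs occur in 5.2%, 1.8% and 1.6% of all windows. Each motif was searched on both strands and separately, so bases may count for more than 1 motif. *Nos3* had no window in the table used.

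*Gucy1a1* (Entrez Gene 60596, chr3:82092427-82145789) and *Gucy1b1* (Entrez Gene 54195, chr3:82032006-82074689) are neighbours on the same strand, with no gene wholly between them. *Gucy1b1* measured 65.6 and 72.7 CPM in NC and 95.6 and 111.4 CPM in si*Airn*, without overlap. Its log2 fold change was 0.58 ± 0.09, with an interval from 0.36 to 0.80 and an adjusted p of 0.0126. With NC replicate 1 left out *Gucy1b1* had an adjusted p of 0.0995, and with NC replicate 2 left out 0.106. The alternatives that kept all libraries gave 3.55e-06 to 0.0268, the latter after correction for GC content and length.

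*Gucy1a1* measured 64.3 and 82.6 CPM in NC and 91.9 and 129.8 CPM in si*Airn*. The groups did not overlap, but the libraries within each group were further apart than for *Gucy1b1*. The log2 fold change was 0.59 ± 0.18, beside the 0.58 of its partner, with an interval from 0.18 to 1.01 and an adjusted p of 0.0620. The likelihood-ratio test of edgeR gave 0.00913, in a range of 2.99e-05 to 0.173 over the alternatives that kept all libraries, and leaving out si*Airn* replicate 1 gave 0.00189. Leaving out NC replicate 1 gave 0.284, NC replicate 2 gave 0.143 and si*Airn* replicate 2 gave 0.132. The ratio of *Gucy1a1* to *Gucy1b1* in FPKM was 0.677 and 0.785 in NC and 0.663 and 0.804 in si*Airn*. The ratios of the groups overlapped, with means of 0.731 ± 0.076 and 0.734 ± 0.099.

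*Prkg1* (Entrez Gene 19091, chr19:30564489-31765033) encodes the cyclic GMP-dependent kinase. It measured 13.1 and 14.2 CPM in NC and 20.6 and 24.4 CPM in si*Airn*, so both si*Airn* libraries were above both NC libraries. Its log2 fold change was 0.72 ± 0.12, with an interval from 0.44 to 1.01 and an adjusted p of 0.0134. After correction for GC content and length the change was 0.46 with an adjusted p of 0.0607, in a range of 2.25e-05 to 0.0607 over the alternatives that kept all libraries. Leaving out NC replicate 1 gave 0.101 and leaving out NC replicate 2 gave 0.115. The FPKM of *Prkg1* were 1.76 and 1.56 in NC and 2.85 and 3.40 in si*Airn*. The order of the NC libraries was reversed between CPM and FPKM, and the transcript length implied by count and FPKM was 7402 and 8926 bases in NC and 7366 and 7232 bases in si*Airn*.

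*Pde5a* (Entrez Gene 242202, chr3:122728947-122859374) measured 9.98 and 9.78 CPM in NC and 13.0 and 12.5 CPM in si*Airn*. The groups did not overlap, yet the log2 fold change of 0.37 ± 0.12, with an interval from 0.09 to 0.65, had an adjusted p of 0.0753. After correction for GC content and length the change was 0.14, with an adjusted p of 0.458, in a range of 0.0341 to 0.458 over the alternatives that kept all libraries.

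Markers of contractile and stellate cells had positive log2 fold changes too, 13 of 13 tested. Of these 3 rose (*Acta2*, *Reln* and *Lum*), or 23.1% against 8.27% of all genes, and the median log2 fold change was 0.43. The summed levels given above overlapped between groups. Compared by replicate number, the sum was higher in si*Airn* each time, at 1568 and 1793 CPM for replicate 1 and 1920 and 2334 CPM for replicate 2. The number called was 9 without si*Airn* replicate 1 and 9 with a replicate block, 5 with edgeR's likelihood-ratio test and 1 without si*Airn* replicate 2. It was 0 without NC replicate 1 or NC replicate 2 (edgeR's quasi-likelihood test), with 2 and 6 at an unadjusted p under 0.05. Per 1000 CPM of that sum, again a measure chosen after the values were seen, *Gucy1b1* stood at 41.8 and 37.9 in NC and 53.3 and 47.7 in si*Airn*. *Gucy1a1* stood at 41.0 and 43.0 in NC and 51.3 and 55.6 in si*Airn*. *Prkg1* stood at 8.37 and 7.37 in the NC libraries and at 11.5 and 10.4 in the si*Airn* libraries. *Pde5a* overlapped on this measure, at 6.36 and 5.10 in NC and 7.25 and 5.35 in si*Airn*, though it was higher in si*Airn* at each replicate number. The other 3 genes were above the NC range in both si*Airn* libraries relative to that sum, of which *Tagln*, with a log2 fold change of 0.08, made up the largest part. Set against *Reln* alone, likewise chosen after the values were seen, which rose with 0.98 ± 0.14, they were below the NC range instead. *Gucy1b1*, for example, had 3546 and 3973 CPM per 1000 CPM of *Reln* in NC and 3053 and 2702 in si*Airn*. The part of a different cell mixture in the changes was not tested.

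**Figure D4:**
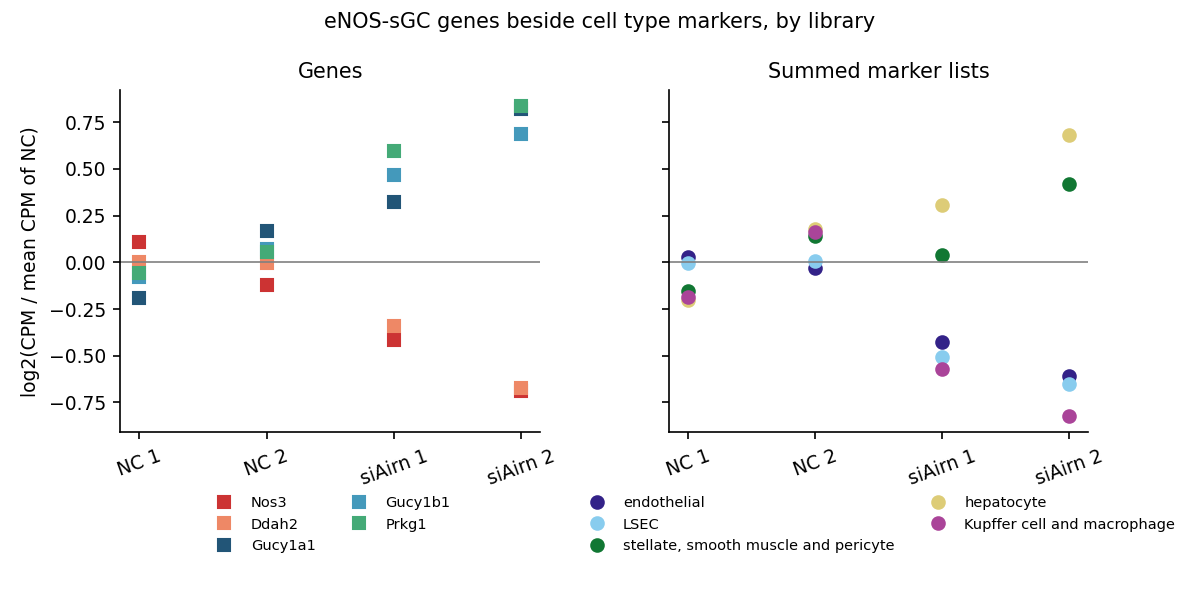
CPM of 5 genes of the axis (left) and summed CPM of 5 cell type marker lists (right: endothelial, LSEC, stellate with smooth muscle and pericyte, hepatocyte, and Kupffer cell with macrophage) in each library, as log2 of the value over the mean of the NC libraries. In both panels si*Airn* replicate 2 lay furthest from the NC libraries for each of the 5 genes and 5 lists plotted.

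For *Nos3*, *Ddah2*, *Gucy1a1*, *Gucy1b1* and *Prkg1*, si*Airn* replicate 2 lay further from the NC mean than si*Airn* replicate 1, while for *Pde5a*, *Nosip* and *Gch1* si*Airn* replicate 1 lay further from it. The 3 members with the highest GC content were *Ddah2* at 59.4%, *Nos3* at 58.2% and *Nosip* at 57.1%, and all 3 had log2 fold changes below 0. *Prkg1* at 41.5%, *Gucy1b1* at 43.8%, *Gucy1a1* and *Nostrin* at 44.7% and *Pde5a* at 46.8% had log2 fold changes above 0. *Ddah1*, at 49.5%, lay between these sets in GC content and had a log2 fold change of -0.02. *Gch1* at 45.9% did not follow that order, with a log2 fold change below 0 that moved from -0.19 to -0.25 after correction for GC content and length. Removing the trend of log2 ratios on GC content and length lowered the number of members called from 4 to 1, *Gucy1b1*. Over all genes the number called was 1032 after the correction and 2362 without it, among the 12942 genes with an annotated GC content and length.

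The wider pathway was read from 73 further genes in 8 lists, of which 62 were tested. The threshold was passed by 23 of them (37.1%), of which 8 rose and 15 fell in si*Airn*, against the 16.8% of all genes given above. Their median log2 fold change was -0.08. The number called was 12 with limma on log2(FPKM + 1), 8 after correction for GC content and length and 10 without si*Airn* replicate 2. Without NC replicate 1 or NC replicate 2, edgeR's quasi-likelihood test called 0 of the 62 genes, while 24 and 23 had an unadjusted p under 0.05, beside the 3475 and 3075 of all genes given above. Of the 23 genes, 7 were also called after the correction: *Pts*, *Slc7a1*, *Dynll1*, *Pecam1*, *Klf4*, *Npr1* and *Gucy1a2*.

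**Figure D5:**
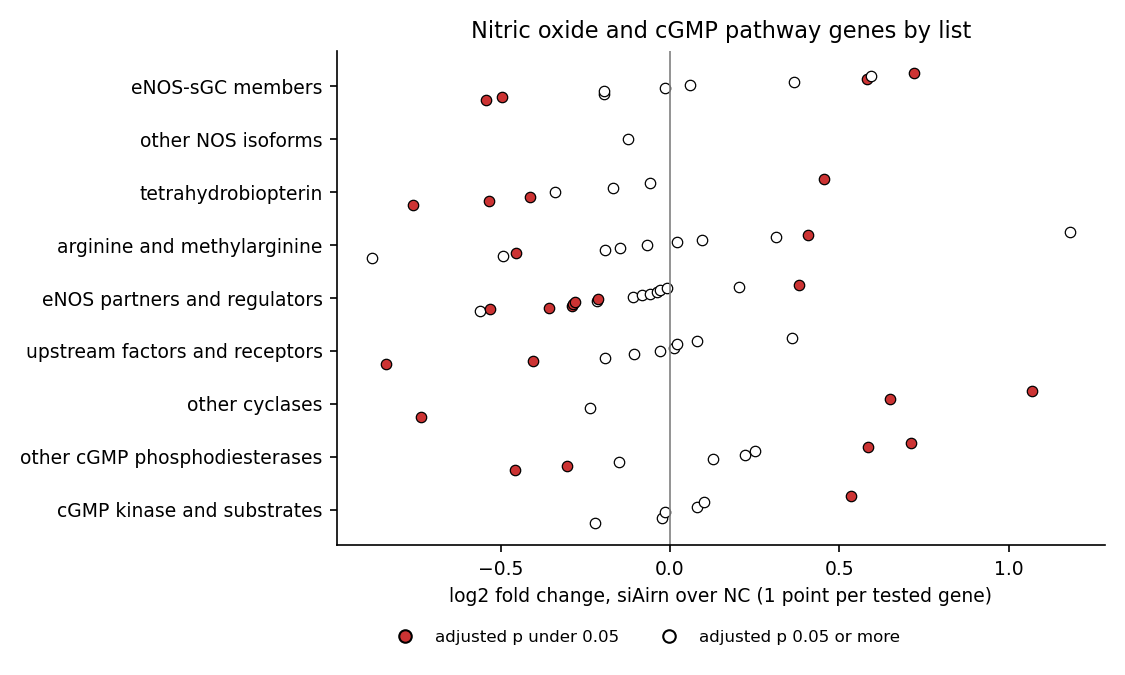
Log2 fold change, si*Airn* over NC, of the tested genes of the axis and of 8 lists of nitric oxide and cyclic GMP genes, 1 point per gene, filled where the adjusted p was under 0.05. Points fall on both sides of 0 in most lists, with *Gucy1a2* at 1.07 and *Klf4* at -0.84 among the filled points furthest out.

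Of 7 tested genes of tetrahydrobiopterin supply, 3 fell, against 8.56% of all genes. *Gchfr*, the feedback regulator of GTP cyclohydrolase, had 54 to 105 counts per library. It fell with a log2 fold change of -0.76 ± 0.21, just past the threshold (adjusted p = 0.0494). After correction for GC content and length *Gchfr* had an adjusted p of 0.131. It was called with limma, but not with DESeq2. Leaving out 1 library moved its log2 fold change over -0.88 to -0.63. *Pts*, the next enzyme of the synthesis, fell with -0.53 ± 0.14, and was likewise called with limma but not with DESeq2. *Qdpr*, which regenerates the cofactor, fell with -0.41 ± 0.10, which was -0.24 after correction for GC content and length. *Spr*, with the highest level of the list at 37.1 FPKM in NC, had a log2 fold change of -0.17 ± 0.11 and an adjusted p of 0.335.

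Of 11 tested genes of arginine supply and methylation, 1 rose and 1 fell (18.2% called, near the 16.8% of all genes). *Slc7a1*, the main importer of cationic amino acids, measured 145.1 and 136.1 CPM in NC and 181.2 and 191.5 CPM in si*Airn*, and rose with a log2 fold change of 0.41 ± 0.07 (adjusted p = 0.0132). *Slc7a7*, a subunit of an exchanger of such amino acids, fell with -0.45 ± 0.10, but was not called after correction for GC content and length. *Prmt1*, an arginine methyltransferase and the most abundant gene of the list at 160.4 FPKM in NC, had a log2 fold change of -0.07 ± 0.06, which was 0.08 after correction for GC content and length. Of the other NOS isoforms, *Nos2* was low at 0.46 FPKM in NC and had a log2 fold change of -0.12 ± 0.31.

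Of 16 partners and regulators of eNOS, 6 fell and 1 rose (43.8% called, against 16.8% of all genes). The genes that fell were *Pecam1* (-0.53 ± 0.10), an endothelial adhesion molecule also counted among the endothelial markers, *Cyb5r3* (-0.36 ± 0.06), *Stub1* (-0.29 ± 0.08), *Dynll1* (-0.29 ± 0.06), *Calm2* (-0.28 ± 0.07) and *Akt1* (-0.21 ± 0.06). *Calm2* encodes calmodulin, and *Akt1* the kinase known for phosphorylating eNOS. After the correction *Akt1* was at -0.06 (adjusted p = 0.496), *Stub1* at -0.08 (0.557), *Cyb5r3* at -0.23 (0.0532) and *Calm2* at -0.25 (0.0515). *Zdhhc21*, which encodes a palmitoyltransferase of eNOS, rose with a log2 fold change of 0.38 ± 0.08, which was 0.04 after correction for GC content and length. *Hsp90ab1*, an isoform of the chaperone that binds eNOS and the most abundant gene of the list at 926.0 FPKM in NC, had a log2 fold change of -0.04 ± 0.06. That sign changed under the correction (0.03) and without NC replicate 1 (0.0013).

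Upstream of eNOS, 2 of 9 genes tested fell (22.2% called, beside 16.8% of all genes in either direction and 8.56% lower). *Klf4*, a Krüppel-like factor, measured 16.0 and 13.0 CPM in NC and 7.97 and 8.25 CPM in si*Airn*, with a log2 fold change of -0.84 ± 0.14 and an adjusted p of 0.0145. *Klf2*, a related factor known as an activator of *Nos3*, measured 14.7 and 13.4 CPM in NC and 12.4 and 12.2 CPM in si*Airn*. Its log2 fold change was -0.19 ± 0.12 with an adjusted p of 0.284, and it was 0.02 after correction for GC content and length. *S1pr1*, a sphingosine-1-phosphate receptor and the most abundant gene of the list at 240.3 FPKM in NC, fell with -0.40 ± 0.11 (adjusted p = 0.0427). It was also called with DESeq2, but not with limma or after correction for GC content and length.

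Other cyclases and natriuretic peptide receptors changed in both directions, 3 of 4 tested (75.0%, against 16.8% of all genes). *Gucy1a2*, the alternative alpha subunit of sGC, measured 10.3 and 11.6 CPM in NC and 19.4 and 26.5 CPM in si*Airn*. It rose with a log2 fold change of 1.07 ± 0.17 and an adjusted p of 0.0116, from a level of 1.31 FPKM in NC, below that of *Gucy1a1*. With limma its change was 0.45 on log2(FPKM + 1) and 0.68 on log2(FPKM + 0.1), both with an adjusted p of 0.104. Leaving out NC replicate 1 gave an adjusted p of 0.0977 with edgeR, and NC replicate 2 gave 0.114. *Npr1*, the receptor cyclase for atrial natriuretic peptide, fell from 164.4 and 151.6 CPM in NC to 100.5 and 89.3 CPM in si*Airn*, with a log2 fold change of -0.74 ± 0.08 and an adjusted p of 0.00574. *Npr3*, the clearance receptor for these peptides, which has no cyclase domain, rose with 0.65 ± 0.12, which was 0.42 once corrected for GC content and length (adjusted p = 0.0829).

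Among 8 other phosphodiesterases tested, 2 rose and 2 fell (50.0% called, against 16.8% of all genes). *Pde3a* rose with a log2 fold change of 0.71 ± 0.14 and *Pde1a* with 0.58 ± 0.13. After correction for GC content and length they were at 0.37 (adjusted p = 0.127) and 0.45 (0.0744). *Pde2a*, an enzyme stimulated by cyclic GMP, was the most abundant of the list at 257.2 FPKM in NC. It measured 1096 and 959.1 CPM in NC and 822.2 and 674.5 CPM in si*Airn*, with a log2 fold change of -0.46 ± 0.11 and an adjusted p of 0.0320, and with -0.40 and 0.0622 after the correction. *Pde6d*, which encodes a carrier of prenylated proteins, fell with -0.30 ± 0.07, which was -0.15 after the correction (adjusted p = 0.241). Of 6 tested genes for cyclic GMP kinases and their substrates, 1 was called (16.7%, near the 16.8% of all genes). *Mrvi1*, a substrate of the *Prkg1* kinase at the endoplasmic reticulum, rose with 0.53 ± 0.14 (adjusted p = 0.0466). It was also called with DESeq2, but not with limma, with upper-quartile factors or after the correction. *Rhoa*, the most abundant of that list at 341.6 FPKM in NC, had a log2 fold change of -0.01 ± 0.06.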

How the data were processed

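RNA-seq was made from primary LSEC in 4 libraries, 2 NC and 2 si*Airn*, as single-end reads on a BGISEQ-500. The authors deposited 1 table with an estimated count and an FPKM per gene and library. The submitters' processing notes name BWA, Bowtie2 and RSEM without versions, and a human build, hg19, which cannot be the build of mouse reads. Which step used which tool is not given in the sources used here. The deposited group means were not used. Estimated counts (76.5% to 76.8% whole) were rounded. Genes passing edgeR's filterByExpr (13628 of 18373) were scaled with TMM factors and fitted in R 4.3.3 with edgeR 4.0.16 (quasi-likelihood test, group as the sole term, Benjamini-Hochberg adjustment over all tested genes). The threshold was an adjusted p of 0.05.

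Library totals were 17308382 to 18371959 counts, and CPM are counts divided by the library total times its TMM factor. Tested on simulated data, the fit found 81.8% of 2-fold and 60.2% of 1.5-fold changes and called 6 unchanged genes among 13627 tested. The simulated counts were drawn independently at the dispersion fitted to these libraries. They held no trend on GC content or length and no difference shared by same-numbered libraries, so these rates need not hold for the real libraries. Alternatives were DESeq2 1.42.0, edgeR's likelihood-ratio test, limma 3.58.1 on log2(FPKM + 1) or log2(FPKM + 0.1), upper-quartile factors, other filters, a replicate block, removal of trends on GC content and length (GENCODE M21) and leaving out each library. A fit of the same annotated genes without that correction was chosen after seeing the data. Fits on 3 libraries assume that a lone sample varies like the other group.

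The members and lists were chosen with earlier results of these data known. Named were all members, *Airn*, pathway genes with an adjusted p under 0.05, *Klf2*, the most abundant gene of each list and the 5 genes most like *Nos3*. A result for 1 pathway gene is not reported here. *Atg9b* was added as an overlapping gene, and marker genes stand for their lists. Promoter windows came from RefSeq on GRCm38.p6 for 9 of 10 members.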

Additional observations from a re-analysis of the deposited data

How the results depend on the processing

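The direction of every member was kept under every alternative run, except *Ddah1*, which turned from -0.02 to 0.022 without si*Airn* replicate 1 and ranged from -0.054 to 0.022 over the libraries left out. The number of members called ranged from 0 to 5 when 1 library was left out, and that of all genes from 0 (3075 with an unadjusted p under 0.05, edgeR's quasi-likelihood test) to 2332. For members past the study's threshold it ranged from 1 to 5 and for pathway genes from 0 to 21. Leaving out 1 library moved the log2 fold change over -0.69 to -0.42 for *Nos3*, 0.32 to 0.82 for *Gucy1a1*, 0.47 to 0.69 for *Gucy1b1*, 0.60 to 0.84 for *Prkg1* and -0.67 to -0.34 for *Ddah2*.

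After correction for GC content and length, 1 member, 8 pathway genes and 1032 genes in all were called, and 1 member passed the study's threshold. *Nos3* was then -0.46, *Prkg1* 0.46 and *Ddah2* -0.27, all past the adjusted threshold no longer. With limma, 3 members passed the study's threshold on log2(FPKM + 1), *Nos3* was -0.45 on log2(FPKM + 1) and -0.51 on log2(FPKM + 0.1), and 12 and 13 pathway genes were called. The likelihood-ratio test called *Gucy1a1* (0.59).

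Over the tested genes, same-numbered libraries correlated at 0.233 in their deviations. Some markers followed the number in both groups, such as *Ppbp* (20 and 0 counts in NC, 18 and 0 in si*Airn*) and *Krt7* (63 and 11, 63 and 3). Others did not, such as *Csf1r* (222 and 275, 207 and 143). The labels name no shared batch, and whether same-numbered libraries share a preparation was not given. The main fit did not take the numbers as pairs, and its calls depend on that choice. A replicate block called 7 members and 4841 genes, adding *Gucy1a1* (0.59), *Pde5a* (0.37) and *Nosip* (-0.20).

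Among other named genes, the sign turned after the correction for *Hsp90ab1* (0.030), *Klf2* (0.017) and *Prmt1* (0.077). It also turned without NC replicate 1 for *Hsp90ab1* (range over libraries left out -0.082 to 0.0013) and *Nos2* (-0.26 to 0.015), without NC replicate 2 for *Rhoa* (-0.062 to 0.032), and with limma for *Hsp90ab1* (0.00065 in both forms). As CPM with TMM factors per kilobase, NC levels were 1.55 for *Pde5a*, 55.2 for *Ddah1*, 87.5 for *Ddah2* and 14.1 for *Gch1*, the si*Airn* level of *Gch1* was 12.3, and the NC ratio of *Ddah1* to *Ddah2* was 0.631. The causes were not tested. Depth limits *Airn*, at 3 to 11 counts, while the members had at least 123.8 counts in each library.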
